A study of Mus musculus with 6 samples.

Results

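The genes described here are the mouse integrins, cadherins and protocadherins, together with 5 neural adhesion molecules of the immunoglobulin type (L1cam, Ncam1, Nrcam, Chl1 and Cntn2). They were picked by a rule on symbols, set with earlier results of these data known, and 124 of the 21878 rows of the expression table matched. RNA sequencing was done on Neuro-2a cells, an established mouse neuroblastoma line, in 3 groups of 2 libraries. The control group is labelled wild type, the second group overexpressed the long noncoding RNA lncPim1, and in the third lncPim1 was knocked down by RNA interference. Neither a vector nor a scrambled RNA is named for the control cells, and no clone or time after treatment is given. Whether replicate libraries stem from separate cultures is not stated, so the p-values below measure the spread among these 6 libraries alone, and that spread may be technical. The series title concerns neuron-like differentiation and regrowth of neurites after injury by ACR, and no sample label mentions such an injury. lncPim1 itself was not analysed here, since 0 rows carried its name, which leaves the group labels without a check on their target.

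Integrins are receptors for the extracellular matrix, each made of an alpha and a beta chain that together set which ligand is bound, and they connect to the actin skeleton through adaptors such as talin and kindlin. Cadherins join neighbouring cells through calcium-dependent contacts and pass force to actin through catenins. Clustered protocadherins are encoded by neighbouring alpha, beta and gamma gene groups, of which a neuron transcribes a few variable exons, and their combinations let neurites of one cell recognise and avoid each other. L1cam, Ncam1, Nrcam, Chl1 and Cntn2 act in neurite outgrowth, bundling and guidance.

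Levels are in FPKM, fragments per kilobase of transcript and per mapped fragments of the library, so they can be compared between genes per length. Summed FPKM was 277508 and 272528 in the knockdown libraries and 294510 to 305463 in the other 4. Over the 6 libraries 15120 to 15573 rows were above 0. Absolute depth is unknown, and steps in the low values put depth relative to control 1 between 0.884 and 1.08. Of 17 sympathetic neuroblast markers 14 reached a mean of 1 FPKM, with Hand2 at 68.3 to 111 FPKM over the libraries, whereas Dbh was at most 0.494. The knockdown libraries stood apart from the other 4. Their Spearman correlations with those over tested genes were 0.976 to 0.984, against 0.992 to 0.994 between control and overexpression libraries.

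Of the 124 members, 29 averaged at least 1 FPKM across the 6 libraries and entered the test. Another 43 lay from 0.1 up to 1 FPKM, 52 lay lower, and 7 of these (Cdh7, Cdh9, Cdh19, Itgax, Itgb8, Pcdh8 and Pcdh18) were listed at 0 in every library. The tested members were 8 of 18 integrin alpha chains, 4 of 8 integrin beta chains, 4 of 23 cadherins, 3 of the 5 immunoglobulin-type genes, 2 of 12 non-clustered protocadherins, and 3 of 14 alpha, 2 of 22 beta and 3 of 22 gamma protocadherins. The members nearest to the limit were Itgb4 (mean 1.10 FPKM) and Itga2b (1.15) inside it, and Nrcam (0.918) and Cdh17 (0.909) outside it. A row that passes this limit only through the group where it is high had to differ, so the 29 are not a sample of all members.

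**Figure D1:**
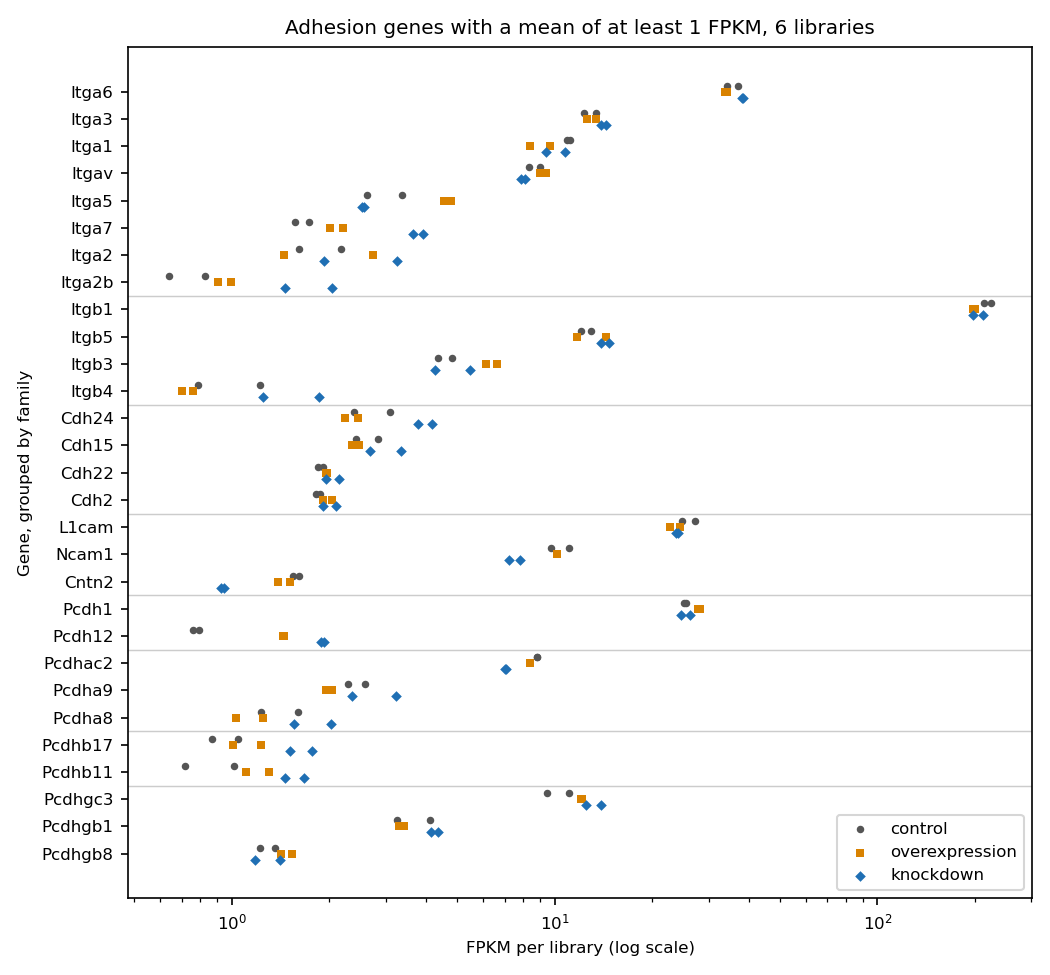
FPKM of the 29 tested adhesion genes in each of the 6 libraries on a log scale, grouped by family, with a point for every library. Itgb1 lies highest at 197 to 225 FPKM, and the knockdown points of Itga7, Itga2b and Pcdh12 lie to the right of their control points while those of Ncam1 and Cntn2 lie to the left.

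In control cells the most abundant member was Itgb1, the beta chain shared by the laminin, fibronectin and collagen receptors, at 219 ± 7.95 FPKM (SD, n = 2). The alpha chains with the highest levels were the laminin receptor chains Itga6 (35.7 ± 1.89 FPKM) and Itga3 (12.9 ± 0.741), the collagen receptor chain Itga1 (11.1 ± 0.172) and Itgav (8.67 ± 0.459), which pairs with several beta chains. Of the partners of Itgav, Itgb5 was at 12.5 ± 0.597 FPKM and Itgb3 at 4.58 ± 0.335. Itgb4, the partner of Itga6 in hemidesmosomes, was at 1.00 ± 0.307 FPKM. The cadherins were low throughout, with Cdh24 at 2.74 ± 0.503 FPKM, Cdh15 at 2.63 ± 0.295, Cdh22 at 1.89 ± 0.0555 and Cdh2, the neural N-cadherin, at 1.85 ± 0.0421. The first pair and the second pair each differed by less than their SDs. L1cam reached 26.0 ± 1.69 FPKM and Pcdh1, a non-clustered protocadherin, 25.4 ± 0.203, which is within the spread of L1cam. Pcdhgc3 was at 10.3 ± 1.11 FPKM, Ncam1 at 10.4 ± 0.917, Pcdhac2 at 8.83 ± 0.0249 and Pcdhgb1 at 3.68 ± 0.605.

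Under knockdown of lncPim1, 10 of the 29 tested members were called against control (limma, Benjamini-Hochberg adjusted p under 0.05), 7 higher and 3 lower. This is 34.5% of them, against 46.2% of all 10721 rows tested. By direction, the background was 14.8% higher and 31.3% lower, and the median log2 fold change was 0.13 over the members and -0.07 over all rows. This background varied with level. Among the 7499 rows averaging at least 5 FPKM, fitted alone, 942 were higher and 2959 lower, with a median of -0.11. Of the members in that fit 1 was higher and 2 lower. The members were not compared with rows of matched level. The 7 members that rose were the integrin chains Itga7 and Itga2b, the cadherin Cdh24, Pcdh12 and the clustered protocadherins Pcdhb11, Pcdhb17 and Pcdhgc3, and the 3 that fell were Ncam1, Cntn2 and Pcdhac2. In bulk samples such as these, fewer cells of a type and less RNA per cell cannot be told apart. Under overexpression 2 members rose, Itga5 and Pcdh12, and 0 fell, against a background of 0.69% higher and 0.849% lower, or 1.54% in either direction. At an unadjusted p under 0.05 the overexpression count was 8 of 29, against 17.1% of all rows tested. All fold changes are on the scale of log2(FPKM + 1), which understates the change of low genes.

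**Figure D2:**
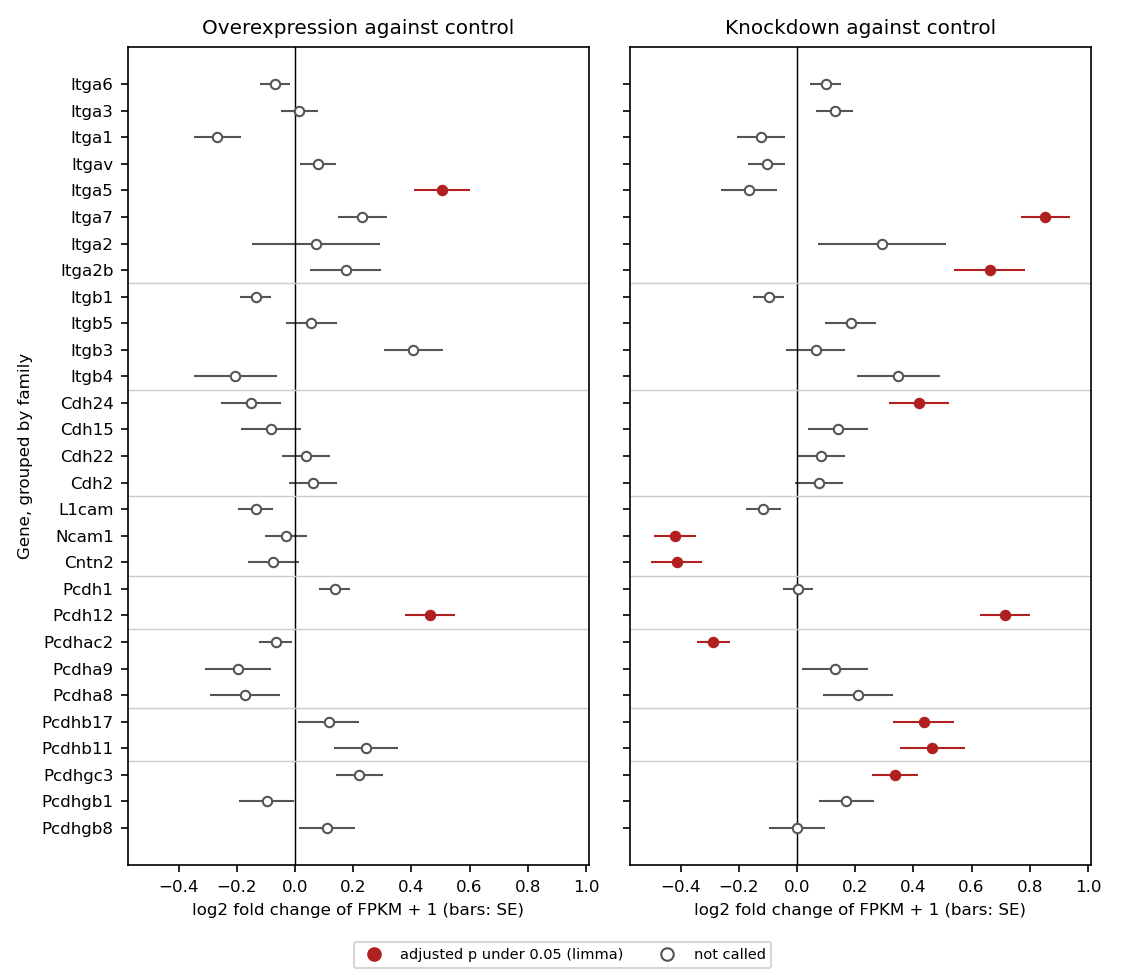
Log2 fold change of FPKM + 1 for the 29 tested adhesion genes under overexpression (left) and knockdown (right) against control, with bars for the SE and filled points for an adjusted p under 0.05 (limma). Both panels use the same control libraries; 2 points are filled on the left and 10 on the right.

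Promoter windows from RefSeq on build GRCm38.p6, running from 250 bases before to 50 bases after the annotated start, were given for 44 of the 124 members. Of the members called against control 4 had one. They are printed 5′ to 3′ on the gene's own strand, so that the stretches around the RefSeq starts can be read beside the values of the genes. The window of Itga2b is chr11:102469834-102470133, that of Cdh24 chr14:54641315-54641614, that of Cntn2 chr1:132542891-132543190 and that of Itga5 chr15:103366742-103367041, all on the minus strand. Capitals mark matches to any of 5 short motifs searched on both strands.
Itga2b: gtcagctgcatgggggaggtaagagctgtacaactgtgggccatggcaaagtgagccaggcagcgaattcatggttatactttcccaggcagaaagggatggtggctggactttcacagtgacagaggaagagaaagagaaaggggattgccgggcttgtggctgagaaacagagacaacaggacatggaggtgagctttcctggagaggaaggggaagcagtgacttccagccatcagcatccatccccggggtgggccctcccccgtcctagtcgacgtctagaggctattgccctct
Cdh24: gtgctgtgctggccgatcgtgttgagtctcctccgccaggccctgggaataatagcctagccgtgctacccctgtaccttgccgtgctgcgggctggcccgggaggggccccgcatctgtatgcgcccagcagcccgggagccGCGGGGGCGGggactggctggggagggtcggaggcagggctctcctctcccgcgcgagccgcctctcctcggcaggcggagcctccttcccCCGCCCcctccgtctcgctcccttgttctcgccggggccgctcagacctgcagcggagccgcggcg
Cntn2: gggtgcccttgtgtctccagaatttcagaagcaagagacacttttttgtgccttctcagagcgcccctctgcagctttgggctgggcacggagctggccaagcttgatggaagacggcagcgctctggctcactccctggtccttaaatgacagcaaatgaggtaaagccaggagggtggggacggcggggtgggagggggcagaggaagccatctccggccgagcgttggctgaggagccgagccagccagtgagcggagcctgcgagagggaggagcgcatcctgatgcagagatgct
Itga5: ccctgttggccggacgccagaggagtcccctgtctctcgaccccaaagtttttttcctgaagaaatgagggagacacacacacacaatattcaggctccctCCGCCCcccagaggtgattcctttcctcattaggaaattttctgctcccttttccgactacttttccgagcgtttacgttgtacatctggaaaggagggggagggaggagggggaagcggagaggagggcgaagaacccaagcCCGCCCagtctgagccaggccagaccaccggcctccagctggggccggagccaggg
The motifs were TGANTCA, bound by AP-1 factors, GCGNGGGCG, bound by EGR factors, GGGCGG, bound by SP and KLF factors, CAGGTG, the E-box read by the cadherin repressors of the SNAI and ZEB families, and AGATAA, bound by GATA factors. In the order given, 7.81%, 5.55%, 35.7%, 20.2% and 11.2% of 32851 RefSeq promoter windows of this length held them. The window of Cdh24 held an EGR match at position -107 from the start, overlapping a GGGCGG match at -103, and a reverse-strand GGGCGG match at -16. The window of Itga5 held reverse-strand GGGCGG matches at -149 and -6. The windows of Itga2b and Cntn2 held none of these letters, which says nothing of the factors. By the gene spans given below, the Cntn2 window lies within the gene and that of Itga2b almost wholly so. Their RefSeq starts are thus not the outer ends of these spans, and the stretches before those ends were not searched. G and C made up 73.3% of the Cdh24 window, 61.3% of Cntn2, 58.7% of Itga5 and 56.0% of Itga2b. A match is a description of the sequence, not a binding site.

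Among the tested integrin alpha chains, Itga7 changed most under knockdown. Itga7, a laminin-binding chain best known from skeletal muscle, was at 1.57 and 1.73 FPKM in control cells, 2.21 and 2.01 under overexpression and 3.65 and 3.92 under knockdown. Both knockdown libraries lay above all others, and the rise against control was 0.85 ± 0.08 on the log2 scale (SE; limma, adjusted p = 0.000186). The gene lies on chromosome 10, 128933818 to 128958282, on the plus strand (GRCm38). Itga2b, the alpha chain of the platelet fibrinogen receptor, was at 0.828 and 0.641 FPKM in control cells, 0.910 and 0.998 under overexpression, and 2.05 and 1.46 under knockdown. The groups did not overlap, and the rise under knockdown was 0.66 ± 0.12 (limma, adjusted p = 0.00279). It passed the limit of 1 FPKM through the knockdown libraries alone, so this call was partly set by the limit. Without the limit its adjusted p was 0.0169 (limma). Itga2b lies on chromosome 11, 102453297 to 102470122, on the minus strand, and its beta partner Itgb3 was not called in this comparison (0.06 ± 0.10; limma, adjusted p = 0.631).

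Itga5, the alpha chain of the classical fibronectin receptor, was called higher under overexpression. It stood at 2.62 and 3.37 FPKM in control cells, 4.54 and 4.76 under overexpression and 2.57 and 2.53 under knockdown. Both overexpression libraries lay above the other 4, and the log2 fold change against control was 0.51 ± 0.10 (limma, adjusted p = 0.0453). Under knockdown it was -0.16 ± 0.10 (limma, adjusted p = 0.193). The gene lies on chromosome 15, 103344286 to 103366763, on the minus strand. Itgb3 was also highest under overexpression, at 4.35 and 4.82 FPKM in control cells, 6.66 and 6.14 under overexpression and 5.45 and 4.28 under knockdown, but the difference of 0.41 ± 0.10 under overexpression was not called (limma, adjusted p = 0.0962). The Itga5 call did not hold in 11 of 14 alternative analyses (limma, adjusted p up to 0.247), among them each library left out in turn. Without control 1, for example, its fold change was 0.37 (limma, adjusted p = 0.247).

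The other tested integrin chains were not called in either comparison with control. Itgb1 was at 213 and 225 FPKM in control cells, 198 and 200 under overexpression and 212 and 197 under knockdown. Itga6 was at 34.3 and 37.0, 34.3 and 33.6, and 38.4 and 38.1 FPKM in the same order of groups. Their log2 fold changes under knockdown were -0.10 ± 0.05 (limma, adjusted p = 0.164) and 0.10 ± 0.05 (limma, adjusted p = 0.155). The remaining chains spanned -0.12 for Itga1 to 0.35 for Itgb4 under knockdown, and the SE of 0.22 for the collagen receptor chain Itga2 was the widest of the alpha chains. After scaling by the median log ratio or by quantiles, Itga3, Itga6 and Itgb5 were called higher as well. Below the test limit, Itga10, a collagen receptor chain of cartilage, was at 0.430 and 0.352 FPKM in control cells, 0.468 and 0.569 under overexpression and 1.04 and 1.64 under knockdown. The gene model Gm42957 covers 33.5% of its exonic bases on the same strand, so reads from that stretch cannot be assigned to one of them.

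Itgal and Itgb2, the chains of the leukocyte receptor LFA-1, moved apart at low levels. Itgal was at 0.716 and 0.780 FPKM in control cells, 0.469 and 0.503 under overexpression and 0.395 and 0.433 under knockdown. Itgb2 was at 0.233 and 0.149, 0.213 and 0.360, and 0.341 and 0.531 FPKM. Of 10 leukocyte markers 1 reached the test limit, Lyz2, which was called lower against control in both comparisons, and the defining marker Ptprc was at most 0.0188 FPKM in any library. Below the limit, Fcer1g went from 0 in both control libraries to 0.554 and 1.04 FPKM under knockdown, and Tyrobp from 0.123 and 0 to 0.643 and 0.350. The summed level of the list was 6.92 to 7.27 FPKM in control cells, 4.69 to 5.49 under overexpression and 6.17 to 6.55 under knockdown, and its part in the levels of these chains was not tested.

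Of the tested cadherins only Cdh24 was called. Cdh24, a type II classical cadherin, was at 2.38 and 3.10 FPKM in control cells, 2.46 and 2.25 under overexpression and 3.78 and 4.19 under knockdown. Both knockdown libraries lay above the other 4, with a rise of 0.42 ± 0.10 against control (limma, adjusted p = 0.0107). It lies on chromosome 14, 54631231 to 54641364, on the minus strand. The rise was not called without a filter on low values (limma, adjusted p = 0.0504), without control 1 (0.28; limma, adjusted p = 0.0766) and without knockdown 2 (limma, adjusted p = 0.0595). Cdh2 was at 1.82 and 1.88 FPKM in control cells, 1.91 and 2.05 under overexpression and 1.92 and 2.10 under knockdown, and its fold change under knockdown was 0.08 ± 0.08 (limma, adjusted p = 0.486). Cdh15, the M-cadherin of muscle, and Cdh22 were not called either, at 0.14 ± 0.10 and 0.08 ± 0.08.

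A pair of low epithelial cadherins lay below control under knockdown. Cdh1, E-cadherin, was at 0.549 and 0.357 FPKM in control cells, 0.685 and 0.607 under overexpression and 0.288 and 0.273 under knockdown. Cdh17, the cadherin of liver and intestine, was at 1.06 and 0.895, 0.939 and 1.01, and 0.823 and 0.724 FPKM. In the fit without a filter on low values neither fall was called (limma, adjusted p = 0.124 for Cdh1 and 0.147 for Cdh17). Markers of the digestive tract were lower as well. That list was chosen with earlier results of these data known, so its count of calls is not a test. All 10 markers were called lower under knockdown, against 31.3% of all rows tested. They passed the limit of 1 FPKM through the control libraries, the overexpression libraries or both. Reg3b was at 3.37 and 2.32 FPKM in control cells and 0.0677 and 0.310 under overexpression, and was called lower there. Pnlip was at 0.957 and 0.758, and 2.24 and 3.38, and was called higher. The sum of all 10 markers was 22.8 to 30.0 FPKM in control cells, 23.7 to 34.3 under overexpression and 0.547 to 0.623 under knockdown. Of these markers 7, Fabp1 and Reg1 included, were at 0 in both knockdown libraries. The epithelial marker Epcam was at 0.343 and 0.319, 0.332 and 0.675, and 0 and 0.0245 FPKM. Others of the epithelial list went both ways. Krt19 was at 0.370 and 0.411 FPKM in control cells and 0.0657 and 0.0611 under knockdown. Cldn4 was at 0 and 0.0354, and 0.369 and 0.125, and Grhl2 at 3.32 and 3.28, and 3.62 and 3.66. The epithelial list as a whole summed to 5.71 to 5.73, 5.31 to 5.33 and 4.65 to 5.06 FPKM, and 0 of its 2 tested markers were called under knockdown. The part of such RNA in the levels of Cdh1 and Cdh17 was not tested.

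Among the immunoglobulin-type genes, Ncam1 and Cntn2 fell under knockdown and L1cam was not called. Ncam1 was at 11.1 and 9.77 FPKM in control cells, 10.2 and 10.2 under overexpression and 7.22 and 7.83 under knockdown. The knockdown libraries lay below the other 4, and Ncam1 fell by 0.42 ± 0.07 on the log2 scale against control (limma, adjusted p = 0.00204). Cntn2, a lipid-anchored axonal protein also called TAG-1, was at 1.55 and 1.62 FPKM in control cells, 1.51 and 1.39 under overexpression and 0.929 and 0.950 under knockdown, and fell by 0.41 ± 0.09 (limma, adjusted p = 0.00529). Ncam1 lies on chromosome 9, 49502136 to 49798925, and Cntn2 on chromosome 1, 132509427 to 132543256, both on the minus strand. L1cam was at 24.8 and 27.2, 24.4 and 22.8, and 24.2 and 23.7 FPKM, with a fold change of -0.12 ± 0.06 under knockdown (limma, adjusted p = 0.153). The antisense gene Gm11149 overlaps 4.81% of the exonic bases of Ncam1, and whether the counting used strand is not known from the labels.

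The other members of this group differed from Ncam1 and Cntn2. Nrcam, a relative of L1cam at the node of Ranvier, was at 0.624 and 0.696 FPKM in control cells, 1.16 and 0.954 under overexpression and 0.978 and 1.09 under knockdown, so both treated groups lay above control. Without a filter its rise under knockdown was 0.29 ± 0.07 (limma, adjusted p = 0.0383). Chl1 was at most 0.0174 FPKM. In the same comparison 8 of the 14 tested sympathetic neuroblast markers, Tubb3 and Hand2 among them, were called lower and 1, Th, higher. Among all rows tested, 31.3% were lower and 14.8% higher. The sum of that list was 1792 to 1822 FPKM in control cells, 1572 to 1710 under overexpression and 1446 to 1456 under knockdown. The part of this in the falls of Ncam1 and Cntn2 was not tested.

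**Figure D3:**
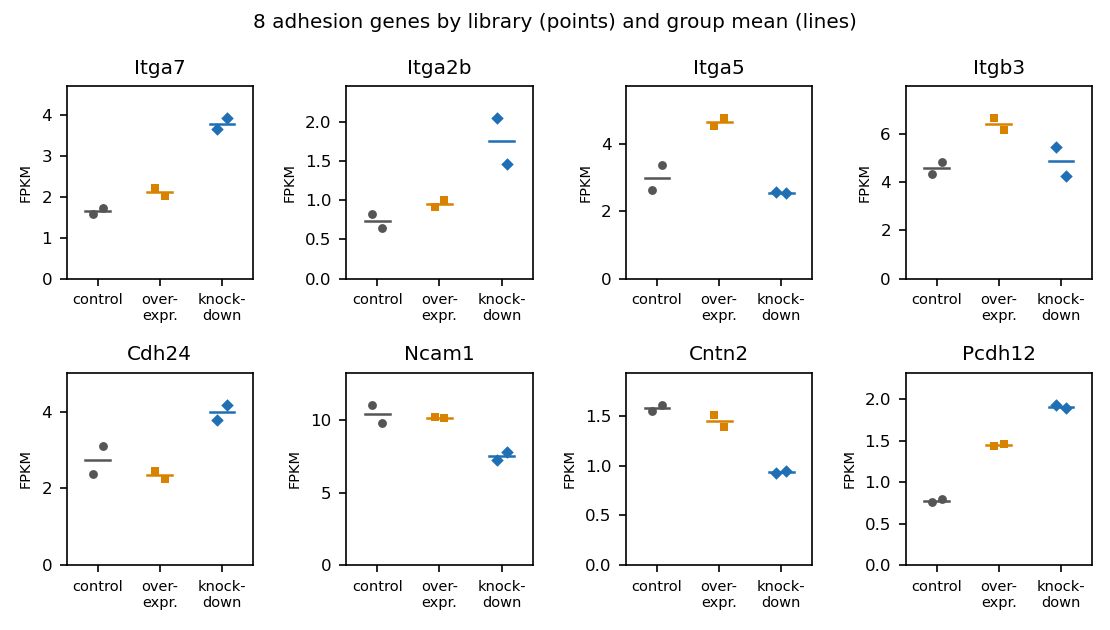
FPKM of 8 adhesion genes in each library (points) with the group mean (line), each panel on its own linear axis from 0. Itga7, Itga2b and Cdh24 are highest under knockdown, Itga5 and Itgb3 under overexpression, Ncam1 and Cntn2 are lowest under knockdown, and Pcdh12 lies above control in both treated groups.

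Pcdh12, a non-clustered protocadherin known from vascular endothelium and placenta, was the only tested member called in both comparisons with control. It was at 0.757 and 0.791 FPKM in control cells, 1.44 and 1.46 under overexpression and 1.93 and 1.89 under knockdown. The 3 groups did not overlap and both treated groups lay above control. The rise was 0.46 ± 0.09 under overexpression (limma, adjusted p = 0.0420). Under knockdown it was 0.71 ± 0.09 (limma, adjusted p = 0.000408). These comparisons share the same control libraries. Under overexpression the call did not hold in 9 of 14 alternative analyses (limma, adjusted p up to 0.235), including each of the 6 libraries left out, whereas under knockdown it held in 14 of 14. Of 7 endothelial markers 2 were tested, and Egfl7 rose under knockdown (24.7 and 25.0 FPKM in control cells, 37.1 and 31.1 under knockdown) while Pecam1 was not called (limma, adjusted p = 0.334). Tek went the other way, from 0.376 and 0.449 FPKM to 0.245 and 0.229, as did Emcn, from 0.0525 and 0.0533 to 0 in both. The list, most of it Egfl7, summed to 26.5 to 27.3 FPKM in control cells, 23.4 to 28.1 under overexpression and 32.8 to 39.7 under knockdown, while the defining marker Kdr was at most 0.00719 FPKM and at 0 in both treated groups. The part of these markers in the level of Pcdh12 was not tested. Pcdh1 was at 25.2 and 25.5, 27.9 and 28.2, and 26.3 and 24.6 FPKM and was not called, with 0.14 ± 0.05 under overexpression (limma, adjusted p = 0.233).

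The clustered protocadherins lie side by side on chromosome 18 of build GRCm38, the alpha group from 36930184 to 37187661, the beta group from 37264938 to 37524479 and the gamma group from 37661793 to 37841873. Alpha genes share constant exons with each other, as gamma genes do. Of the 50-base stretches in the transcripts of an alpha gene, a median of 59.3% occurred in another member, and for gamma genes 44.8%. Values of single alpha and gamma genes are therefore uncertain, since the counting could split or drop such reads. Beta genes have no constant exons, and there the shares were 0 to 12% with a median of 4.27%.

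The summed level of the 22 beta protocadherins was higher under knockdown. It was 8.52 and 7.24 FPKM in control cells, 9.50 and 9.79 under overexpression and 14.5 and 13.3 under knockdown. The mean under knockdown was 1.76 times that of control, and that under overexpression 1.22 times. Both tested beta genes rose. Pcdhb11 was at 1.01 and 0.718 FPKM in control cells, 1.11 and 1.30 under overexpression and 1.67 and 1.47 under knockdown, a rise of 0.46 ± 0.11 against control (limma, adjusted p = 0.00922). Pcdhb17 was at 0.868 and 1.05, 1.01 and 1.24, and 1.51 and 1.78 FPKM, a rise of 0.43 ± 0.11 under knockdown (limma, adjusted p = 0.00974). For both, the knockdown libraries lay above all others. The Pcdhb11 call did not hold without control 2 (limma, adjusted p = 0.0686) and without knockdown 1 (limma, adjusted p = 0.0538), and that of Pcdhb17 without control 1 (limma, adjusted p = 0.0680) and without knockdown 2 (limma, adjusted p = 0.0563).

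Below the test limit the same direction recurred across the beta group. Of 19 beta genes with a mean from 0.1 up to 1 FPKM, 17 had both knockdown libraries above both control libraries and 0 had both below. Among all 2459 rows in that range, the shares were 41.5% above and 21.2% below. Pcdhb10 was at 0.323 and 0.329 FPKM in control cells, 0.729 and 0.707 under overexpression and 0.956 and 1.11 under knockdown, so that all 3 groups were apart. Pcdhb12 was at 0.236 and 0.272, 0.216 and 0.211, and 0.550 and 0.610 FPKM with the knockdown libraries above the other 4. Pcdhb4 was at 0.630 and 0.493, 0.570 and 0.726, and 1.09 and 0.870 FPKM. The 2 genes whose knockdown and control libraries overlapped were Pcdhb5 and Pcdhb21. Under overexpression 7 of the 19 lay above control and 2 below, against 24.9% and 18.3% of all rows in the range. These genes are neighbours of similar sequence, so they are not independent observations.

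**Figure D4:**
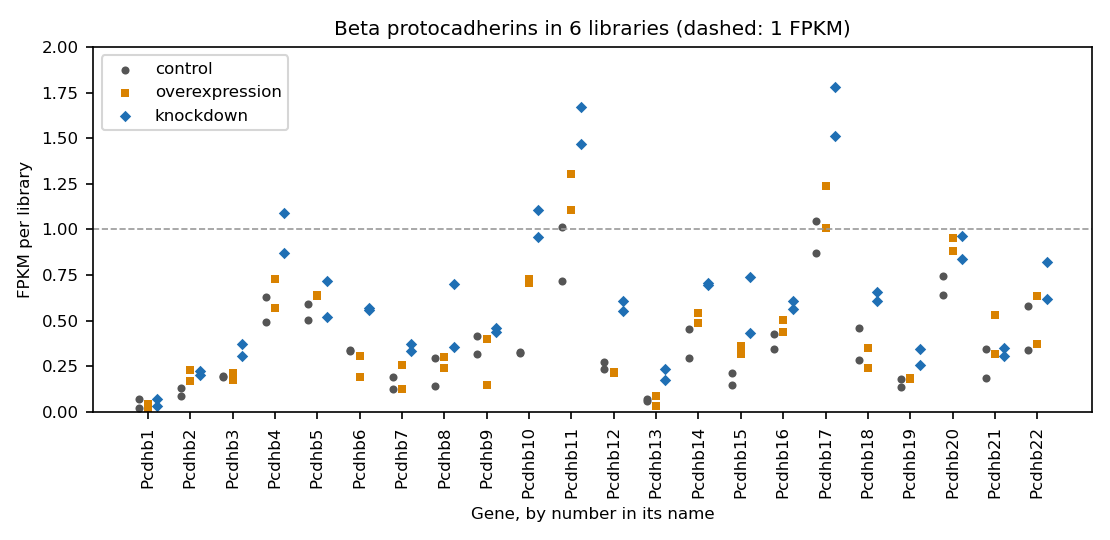
FPKM of the 22 beta protocadherin genes in each of the 6 libraries, ordered by the number in the gene name, with a dashed line at 1 FPKM. Knockdown points lie above control points for most genes, by the widest margin for Pcdhb10, and the overexpression points of Pcdhb10 lie between the other groups.

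When all rows above 0 were fitted without a filter, 12 of 22 beta genes were called higher under knockdown and 0 lower. The background in that fit was 10.8% higher and 17.5% lower of 17311 rows. Pcdhb10 rose by 0.61 ± 0.05 (limma, adjusted p = 0.00357) and Pcdhb12 by 0.33 ± 0.03 (limma, adjusted p = 0.00457). In the same fit, 30 of the 117 members with a value above 0 were higher and 5 lower. The higher ones included 9 gamma genes, 2 alpha genes (Pcdha10 and Pcdhac1), Itga10, Nrcam, Cdh11 and Cdh16, and the lower ones Itgal and Pcdh15, the protocadherin of hair-cell tip links. Several of the higher ones lay near the floor. Cdh16 was at 0.0482 and 0.0339 FPKM under knockdown and at 0 in all other libraries. The gamma genes Pcdhga6, Pcdhga7, Pcdhga8 and Pcdhgb5 had knockdown means of only 0.0813 to 0.130 FPKM. Under overexpression this fit called 0 of 117 members, against 0.052% of all rows higher and 0% lower. At an unadjusted p under 0.05 it held 19 of 117, against 13.6% of all 17311 rows.

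The summed level of the gamma genes also lay above control under knockdown. That of the alpha genes, the largest part of which was Pcdhac2, did not. Summed gamma FPKM was 15.5 and 17.4 in control cells, 18.2 and 18.4 under overexpression and 22.6 and 21.9 under knockdown, or 1.35 times control under knockdown and 1.11 times under overexpression. Pcdhgc3, a C-type gamma gene and the most abundant clustered member, was at 9.48 and 11.1 FPKM in control cells, 12.1 and 12.1 under overexpression and 13.9 and 12.5 under knockdown. Its rise under knockdown was 0.34 ± 0.08 (limma, adjusted p = 0.00874), and it was not called without control 1 (limma, adjusted p = 0.0668) or without knockdown 1 (limma, adjusted p = 0.0559). On the opposite strand BC037039 covers 28.4% of its exonic bases. All 6 gamma genes from 0.1 up to 1 FPKM had both knockdown libraries above both control libraries, against 41.5% of all rows in that range, with Pcdhgb2 at 0.479 and 0.347 in control cells and 0.822 and 0.803 under knockdown. Summed alpha FPKM was 13.8 and 14.2, 13.2 and 13.7, and 14.8 and 13.7, with a knockdown mean 1.02 times that of control. Since Pcdhac2 fell, this sum does not describe the other alpha genes. Of 5 alpha genes from 0.1 up to 1 FPKM, 3 had both knockdown libraries above control and 0 had both below. The shares of all rows in that range were 41.5% and 21.2%. Pcdha8 and Pcdha9, which were tested, were not called under knockdown (0.21 ± 0.12 and 0.13 ± 0.11). The alpha gene with the highest level, Pcdhac2, a C-type gene known from serotonergic axons, was at 8.81 and 8.84, 8.38 and 8.40, and 7.06 and 7.03 FPKM, and fell by 0.29 ± 0.06 under knockdown (limma, adjusted p = 0.00380). Pcdhac1, another C-type gene, was at 0.530 and 0.456 in control cells and 0.966 and 1.04 under knockdown.

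Over all 43 members from 0.1 up to 1 FPKM, 32 had both knockdown libraries above control and 7 had both below, against 41.5% and 21.2% of all rows in that range. The 7 were Cdh1, Cdh17, Cdh18, Itga8, Itgal, Pcdh15 and Pcdh17, so 0 of them were clustered protocadherins. Under overexpression 19 of the 43 lay above control and 3 below, against 24.9% and 18.3%. The share below control was thus not above the background in either comparison.

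The direct comparison of overexpression with knockdown uses the same libraries as those above and adds no independent samples. In it 15 of 29 members were called, 6 higher under overexpression and 9 lower, against a background of 28.1% higher and 12.4% lower, or 40.5% in either direction. Those higher under overexpression were Itga5 (0.67 ± 0.10), Ncam1 (0.39 ± 0.07), Itgb3 (0.34 ± 0.10), Cntn2 (0.34 ± 0.09), Pcdhac2 (0.22 ± 0.06) and Itgav (0.18 ± 0.06). Those lower were Itga7, Cdh24, Itgb4, Itga2b, Pcdha8, Pcdha9, Pcdhb17, Pcdh12 and Itga6, from -0.62 ± 0.08 for Itga7 to -0.17 ± 0.05 for Itga6. For Itgb4 the overexpression libraries were at 0.702 and 0.757 FPKM and those of the knockdown at 1.86 and 1.25, with control at 0.788 and 1.22, and B230344G16Rik covers 7.66% of its exonic bases on the opposite strand. For the fibronectin receptor chain Itga5 and for Ncam1, Itga7 and Cdh24 the call held in every alternative analysis. The others were less stable, with calls lost in 11 of 15 alternatives for Itgav, 5 of 15 for Itgb3, 11 of 14 for Pcdh12, 9 of 14 each for Pcdha9 and Pcdhb17, and 2 to 6 for the other 6 genes. Without knockdown 2 the difference for Itgb3 was 0.20 (limma, adjusted p = 0.141), and without knockdown 1 that for Pcdha9 was -0.16 (limma, adjusted p = 0.278). Itgb4 passed the limit of 1 FPKM through the knockdown libraries alone. Scaling by the median log ratio changed the split to 3 higher and 11 lower. Without a filter 8 of 117 members were higher and 23 lower, against 15.5% and 8.46% of all rows. Of the 19 low beta protocadherins 0 lay above knockdown in both overexpression libraries and 14 lay below, against 21.1% and 37.9% of rows in that range.

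Genes that work with these receptors were taken from 8 lists. Their counts under knockdown are to be read against 14.8% higher and 31.3% lower among all rows tested, or 20.1% and 22.6% after scaling by the median log ratio. Under knockdown the integrin adaptors had 6 higher and 8 lower of 26 tested, with a median log2 fold change of -0.09 against -0.07 over all rows, so the lower calls were at the background share of 31.3%. Fermt3, kindlin-3, an integrin activator of blood cells, was at 0.352 and 0.414 FPKM in control cells, 0.375 and 0.337 under overexpression and 2.27 and 2.75 under knockdown. It rose by 1.34 ± 0.10 (limma, adjusted p = 0.000114). Fermt3 passed the limit of 1 FPKM through the knockdown libraries alone and so had to differ there. In the fit without that limit its adjusted p was 0.00268 (limma). The actin cross-linker Actn4 fell by 0.65 ± 0.05, from 39.2 and 40.2 FPKM to 25.2 and 24.7. Talin 2 (Tln2) fell by 0.54 ± 0.06, and Csk, the kinase that restrains Src, by 0.50 ± 0.06.

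Of the matrix ligands 7 of 13 tested were higher and 3 lower under knockdown, against 14.8% and 31.3% of all rows tested. After scaling by the median log ratio 1 was lower, against 22.6% of all rows. Lama5, a laminin alpha chain, was at 2.49 and 2.56 FPKM in control cells, 3.97 and 3.41 under overexpression and 7.10 and 6.36 under knockdown, a rise of 1.13 ± 0.09 against control (limma, adjusted p = 0.000102). Nephronectin (Npnt) rose by 1.00 ± 0.11 and the matricellular protein gene Cyr61 by 0.78 ± 0.09. Fibronectin (Fn1), the ligand of Itga5 with Itgb1, fell by 0.63 ± 0.05, from 47.8 and 47.1 FPKM to 31.1 and 29.5. Under overexpression the only ligand called was Col4a1, a basement membrane collagen, which was at 25.5 and 27.2 FPKM in control cells, 37.0 and 34.9 under overexpression and 22.8 and 22.7 under knockdown (0.44 ± 0.06 under overexpression; limma, adjusted p = 0.0109).

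On the cadherin side, 2 of 17 tested catenins and tail partners were higher and 7 lower under knockdown, and 4 were lower after scaling by the median log ratio. Among all rows tested 14.8% were higher and 31.3% lower, or 22.6% lower after that scaling. The 2 higher, and the 4 lower after scaling, were close to these shares. Ctnnb1, beta-catenin, was at 102 and 107 FPKM in control cells, 93.7 and 95.4 under overexpression and 72.7 and 73.7 under knockdown, and fell by 0.50 ± 0.05 (limma, adjusted p = 0.000171). Ctnnd1, p120-catenin, fell by 0.28 ± 0.05 and the neural alpha-catenin Ctnna2 by 0.42 ± 0.09, while the junction protein gene Plekha7, which also passed the limit through the knockdown libraries alone, rose by 0.46 ± 0.09 (limma, adjusted p = 0.00751 without the limit). Of 6 tested repressors of cadherin genes 1 was lower, Tcf4 (by 0.52 ± 0.07), and Zeb1, Zeb2 and Snai2 were not called.

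Of 14 tested factors that act at clustered protocadherin promoters or their chromatin, 0 were higher under knockdown and 9 lower, or 6 lower after scaling by the median log ratio, against 31.3% and 22.6% lower among all rows. Ctcf, the insulator protein that joins these promoters to their enhancers, was at 15.7 and 15.5 FPKM in control cells, 14.2 and 15.1 under overexpression and 10.3 and 10.4 under knockdown, and fell by 0.55 ± 0.06 (limma, adjusted p = 0.000205). The cohesin subunit gene Stag1 fell by 0.70 ± 0.08 and Wiz by 0.66 ± 0.08. Another cohesin subunit gene, Rad21, fell by 0.29 ± 0.05 and was not called after quantile normalization (limma, adjusted p = 0.232). Smchd1, a chromatin protein that silences clustered protocadherins, was at 0.06 (limma, adjusted p = 0.419). Of the WAVE complex and other protocadherin tail partners 0 of 12 were higher and 5 lower, or 3 lower after scaling by the median log ratio. Among all rows tested 14.8% were higher and 31.3% lower, or 22.6% lower after that scaling, so the 3 lower were close to the background share. Wasf2, an actin-regulating subunit, fell by 0.39 ± 0.05 and the phosphatase subunit gene Ppp1ca by 0.39 ± 0.05.

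Among the tail partners of L1 and NCAM 2 of 11 were higher and 5 lower, against 14.8% and 31.3% of all rows tested. The membrane-actin linker radixin (Rdx) fell by 0.43 ± 0.05, the endocytic adaptor subunit gene Ap2m1 by 0.35 ± 0.05 and the spectrin gene Sptbn1 by 0.30 ± 0.05. Of 21 other adhesion molecules 3 were higher and 9 lower, or 5 lower after scaling by the median log ratio. The 3 higher, and the 5 lower after scaling, were close to the background shares. Cadm1, a synaptic adhesion molecule, fell by 0.74 ± 0.07, from 11.4 and 11.1 FPKM to 6.29 and 6.40. Icam1 rose by 0.49 ± 0.10. Clstn3, a calsyntenin of the cadherin superfamily, was at 8.94 and 8.94 FPKM in control cells, 5.54 and 6.52 under overexpression and 6.90 and 6.83 under knockdown, so both treated groups lay below control. Its fall of 0.50 ± 0.08 under overexpression (limma, adjusted p = 0.0207) was, with the rise of Col4a1, 1 of 2 partner genes called in that comparison.

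**Figure D5:**
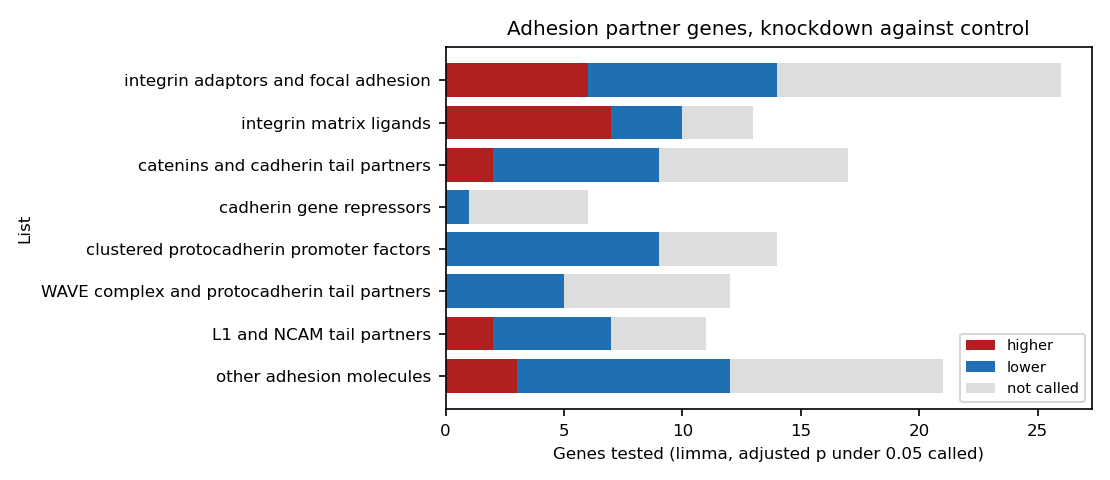
Number of tested genes in each of 8 partner lists that were called higher, called lower or not called under knockdown against control (limma, adjusted p under 0.05). The matrix ligands hold more higher than lower calls (7 and 3), and the protocadherin promoter factors hold 9 lower calls and 0 higher, where all rows tested had 14.8% higher and 31.3% lower.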

How the data were processed

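The authors deposited FPKM values per gene symbol and library. Per the labels' protocols, RNA was harvested with a column kit and sequenced after a stranded mRNA preparation. The submitters' processing notes name HISAT2, Cufflinks, HTSeq, DESeq, Trimmomatic and the build mm10. Not given in the sources used here are versions, roles, annotation and strand setting. FPKM scales each library to its total, so a change in abundant genes shifts all other values.

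Rows averaging at least 1 FPKM across the 6 libraries (10721) were transformed as log2(FPKM + 1) and fitted in limma 3.58.1 (R 4.3.3), with a mean for each of the 3 groups and empirical Bayes moderation with an expression trend. The fit left 3 residual degrees of freedom. P-values were adjusted by the Benjamini-Hochberg method over all rows tested in each of 3 contrasts, and rows under 0.05 were called. The calculation was tested on simulated data.

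The members and the marker and partner lists were chosen with earlier results of these data known. Named with values were members of at least 1 FPKM that were called with groups not overlapping, the most abundant members of each family, those nearest the limit, and up to 4 genes of each partner list by smallest p. Members below 1 FPKM, and Smchd1, Snai2 and single markers, were named after their values were seen. Low members were compared by overlap of groups and in a fit without the filter. Depth relative to control 1 was read from ratios of low values, of which 45.2% to 65.8% lay within 0.03 on the log2 scale of a ratio of small whole numbers. Of 124 symbols 122 were matched to GENCODE M21 on GRCm38. Replicate numbers did not pair the libraries. Fibroblast markers (sums of 2.02 to 2.87 FPKM, 1 of 1 tested higher under knockdown, Pdgfrb) were also read. Pdgfrb passed the limit of 1 FPKM through the knockdown libraries alone, so its call was partly set by the limit. Others of that list went both ways. Pdgfra was at 0.600 and 0.746 FPKM in control cells and 1.12 and 1.12 under knockdown, and Dcn at 0.498 and 0.490, and 0.0583 and 0.131. Schwann cell and glia markers (3.00 to 4.94 FPKM, 1 of 1 tested higher, Erbb3) were read too, and Sox10 was at most 0.0691 FPKM. Alternatives changed the pseudocount, filter, scaling, trend, libraries in the fit and replicate block, and left out each library.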

Additional observations from a re-analysis of the deposited data

How the results depend on the processing

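No called member changed direction under any alternative run. Under knockdown 6 of the 10 calls against control (Itga7, Itga2b, Pcdh12, Ncam1, Cntn2 and Pcdhac2) held under every alternative in which they were fitted. The 7 members higher under knockdown became 30 without a filter and 1 with a filter at 5 FPKM, which tests fewer members, and the 3 lower became 5 without a filter. Leaving out a library gave 4 to 8 higher. The 2 members higher under overexpression became 0 without a filter, 0 with a filter at 5 FPKM, 1 after quantile normalization, 1 without the expression trend, 1 with only the compared groups and 0 with a replicate block, and 0 to 1 with a library left out. Against knockdown, the 6 members higher under overexpression became 3 after scaling by the median log ratio and 2 to 5 with a library left out. The 9 lower became 23 without a filter, 1 with a filter at 5 FPKM, and 2 to 7 with a library left out. The causes were not tested. A left-out library leaves a group with 1 sample, which is then assumed to vary like the others.

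Same-numbered libraries did not deviate together (correlations of -0.117, 0.00692 and -0.211), so the numbers were not taken as pairs. With the replicate block the knockdown counts were 7 higher and 3 lower, the overexpression counts 0 and 0, and the direct comparison 5 and 6. With the numbers of the overexpression libraries exchanged in the block, chosen after seeing the data, the counts in the same order were 9 and 3, 2 and 0, and 6 and 10.

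The median log2 fold change of all rows under knockdown moved from -0.07 to -0.004 after scaling by the median log ratio, and members higher from 7 to 10. The same scaling left 17 of 19 low beta protocadherins above control and put their summed ratio at 1.85. With a control or knockdown library left out the ratio was 1.63 to 1.91, and the count, which can only stay or grow when a library is dropped, was not read. These checks were chosen after seeing the data, as were those of the partner lists. Of 31 named partner results 25 held throughout. Nckap1, Brk1 and Clstn1, like Rad21, were not called after quantile normalization. The calls of Col4a1 and Clstn3 under overexpression did not hold in 4 alternatives each. Without counts, the depth sets a limit on low members that cannot be given.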
